A study of Mus musculus with 4 samples.

Results

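The neutrophil granule genes described here are 10 genes fixed by name: Mpo, Elane, Prtn3 and Ctsg of the primary granules, Ltf, Ngp and Camp of the secondary granules, and Fcnb, S100a8 and S100a9, which are grouped here with the secondary genes as secondary and later genes. A gene was represented by its brightest probe set among those whose annotation named that gene alone. Each of the 10 had exactly 1 such probe set, and all 10 were among the 11691 genes tested. Total RNA came from the liver of C57BL/6 mouse fetuses on gestation day 17, counted from a vaginal plug at day 0.5, with wildtype females mated to Sox17+/- males of the same strain. One group was 2 wildtype livers and the other 2 Sox17+/- (heterozygous) livers, each on 1 single-colour Affymetrix array, and the tissue was separated from the biliary system before extraction. No other allele or treatment was named in the labels. The sources used here do not say what kind of Sox17 allele it was or whether each sample pooled several fetuses, so p-values measure only the spread between these samples, which may be technical.

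Neutrophils make their granules in sequence while they mature. Promyelocytes pack the primary (azurophil) granules with myeloperoxidase and serine proteases, whereas myelocytes and metamyelocytes make the secondary (specific) granules with lactoferrin and cathelicidins, and the calprotectin subunits S100a8 and S100a9 accumulate in the cytosol of later cells. The order of these genes is therefore widely used as a scale of granulocyte maturity. In mice the fetal liver is a main site of blood formation before birth, and it holds immature as well as maturing granulocytes.

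The arrays carried a common scale, with median signals between 84.7 and 103. Sox17, a transcription factor of the endoderm and of arterial endothelium, had signals of 244 and 264 on the wildtype arrays and 139 and 124 on the heterozygous arrays at its brighter probe set. The labels number the arrays of each genotype 1 and 2, and same-numbered arrays share a code in their names whose meaning is not stated. The top signal was 56988 and 56860 for wildtype and heterozygous array 1, and 34407 and 32468 for array 2 of each. The bacterial and phage control transcripts that are added, already labelled, to the hybridisation mix followed the same split. The 5' BioB probe set gave 893 (wildtype) and 707 (heterozygous) for number 1 against 306 and 281 for number 2, and the 5' CreX probe set gave 32866 and 29564 against 14882 and 15570. The ratio of 3' to 5' Actb signal, a sign of RNA quality, was also higher on array 1 of each genotype. It was 1.952 and 1.255 on wildtype arrays 1 and 2 and 1.434 and 1.205 on heterozygous arrays 1 and 2. Hepatocyte markers, over 9 tested genes, summed to between 162429 and 284114 per array and biliary markers, over 3, to between 311 and 460. The 10 members stood between the 91.0th and the 99.996th percentile by mean signal of all 45037 probe sets other than controls, tested or not. Having only 2 arrays of each genotype limits the precision of all values.

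Neutrophil granule genes had nearly the same signals in heterozygous and wildtype liver. The mean log2 difference was 0.12 for the 4 primary genes and 0.0014 for the 6 secondary and later genes, heterozygous minus wildtype on the log2(signal + 16) scale, against a mean of -0.03 over all tested genes. The largest difference of a member was that of Ctsg, at 0.26, and the lowest that of Ltf, at -0.14. The arrays of the genotypes overlapped for every one of the 10 genes, whereas 14.5% of tested genes had both heterozygous arrays above both wildtype arrays and 18.6% had them below. All 10 also had lower signals on both arrays numbered 2 than on both arrays numbered 1, as 22% of tested genes had. That order by itself makes the genotypes overlap, so the overlap is no separate result about genotype. The gap between numbers was wide for the secondary and later genes and narrow for the primary genes.

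Of the 10 members, 0 passed limma's test for a difference between genotypes after Benjamini-Hochberg adjustment over all 22519 probe sets (adjusted p = 0.9999 for each), where 0 probe sets passed in all (0% of those tested). Sox17 itself, with a log2 difference of -0.87 at its brighter probe set, did not pass either (limma adjusted p = 0.9999, unadjusted p = 0.0070). A count of 0 after adjustment thus cannot show that the members did not differ. At an unadjusted p under 0.05 the count of members was also 0 of 10, against 4.15% of tested genes and 4.1% of tested probe sets. In same-numbered pairs of arrays, 4 members were higher in the heterozygous liver in both pairs, where 25.5% of tested genes were, and 3 were lower in both, where 32.2% were.

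**Figure D1:**
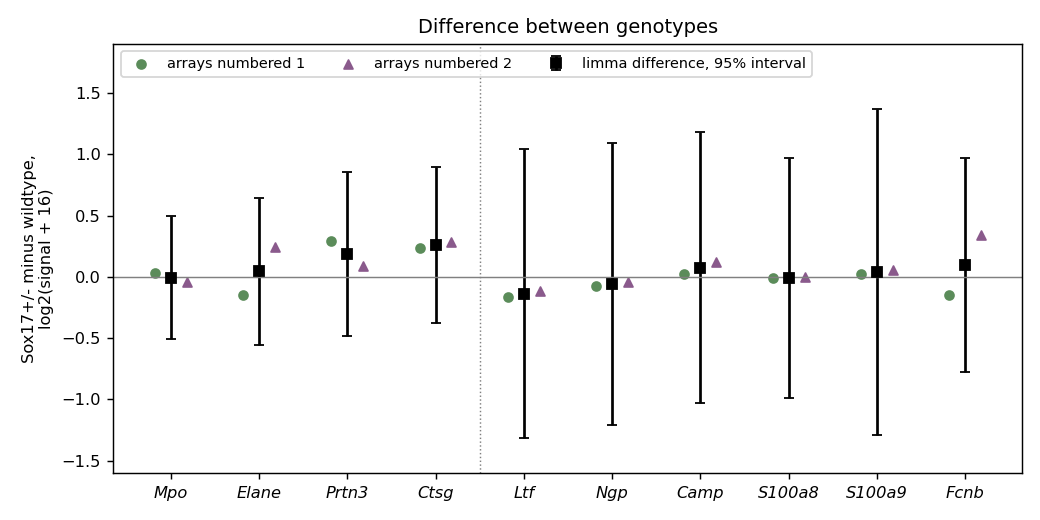
Log2 difference between Sox17+/- and wildtype liver for each gene (squares, with the 95% interval of the limma fit) and the difference within arrays numbered 1 (circles) and numbered 2 (triangles). All 10 intervals include 0, and they are narrowest for Mpo, from -0.51 to 0.49, and widest for S100a9, from -1.29 to 1.37. The fit had genotype as its only term, so the gap between array numbers adds to these widths.

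The primary granule genes are given first. Mpo encodes myeloperoxidase, the enzyme that makes hypochlorous acid from hydrogen peroxide. Its signal was 15396 and 15195 on wildtype arrays 1 and 2 and 15735 and 14742 on heterozygous arrays 1 and 2. Mpo was the steadiest of the 10 genes, and its genotype difference was -0.0061 on the log2 scale (SE 0.20, adjusted p = 0.9999 by limma).

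Elane encodes neutrophil elastase, a serine protease. It had signals of 8257 and 6115 in wildtype and 7434 and 7247 in heterozygous liver, so that wildtype array 1 was the highest and wildtype array 2 the lowest. The difference was 0.05 (95% interval -0.55 to 0.65), with -0.15 within the arrays numbered 1 and 0.24 within those numbered 2.

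Prtn3 encodes proteinase 3, a close relative of elastase, and its gene lies directly beside Elane on chromosome 10, with 0 protein-coding genes between them in the RefSeq annotation. Prtn3 signals were 6939 and 5661 in wildtype and 8482 and 6016 in heterozygous liver. The heterozygous array was the higher one within each number, by 0.29 and 0.09, and the overall difference was 0.19 (95% interval -0.48 to 0.86).

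Ctsg encodes cathepsin G, a serine protease that mast cells also make. Signals were 4486 and 3438 in wildtype and 5289 and 4189 in heterozygous liver. Here too the heterozygous array was the higher one within each number, by 0.24 and 0.28, but wildtype array 1 lay above heterozygous array 2. Its difference of 0.26 (SE 0.25, 95% interval -0.37 to 0.90) did not pass the limma test (adjusted p = 0.9999). The mast cell, basophil and eosinophil markers had summed signals of 6111 and 6429 in wildtype and 2487 and 5369 in heterozygous liver over their 8 tested genes. Most of this sum was Prg2, an eosinophil granule gene, with 4493 and 5009 in wildtype and 1603 and 4148 in heterozygous liver. The mast cell chymase gene Cma1, named after its values were seen, had 73.6 and 99.4 in wildtype and 105 and 74.4 in heterozygous liver. Cpa3, a mast cell carboxypeptidase gene, had 163 and 167 against 45.3 and 115, and Hdc of the same list had 265 and 229 against 161 and 111. Of the 8 markers, 5 were lower in heterozygous liver in both same-numbered pairs and 0 were higher, against 32.2% and 25.5% of tested genes. The part of these cells in the Ctsg values was not tested.

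Among the secondary granule genes, Ltf encodes lactoferrin, which binds iron. Its signal was 9192 and 4608 on wildtype arrays 1 and 2 and 8215 and 4262 on heterozygous arrays 1 and 2. Within each number the heterozygous array was the lower one, by -0.16 and -0.11, differences far smaller than the gap between the arrays of one genotype. The genotype difference was -0.14 (95% interval -1.32 to 1.04).

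Ngp encodes neutrophilic granule protein, a member of the cathelicidin family. It had signals of 28252 and 14526 in wildtype and 26777 and 14126 in heterozygous liver. Camp, the cathelicidin precursor of an antimicrobial peptide, had 16708 and 8709 in wildtype and 17026 and 9485 in heterozygous liver. For both genes the arrays fell into the same order by number, and the genotype differences were -0.06 for Ngp and 0.08 for Camp. Camp, Ngp and Ltf lie on one stretch of chromosome 9, with 8 protein-coding genes between Camp and Ngp and 20 between Ngp and Ltf.

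S100a8 and S100a9 encode the subunits of calprotectin, which binds calcium, zinc and manganese, and are direct neighbours on chromosome 3. S100a8 signals were 50948 and 29877 in wildtype and 50523 and 29836 in heterozygous liver. S100a9 signals were 47790 and 21813 in wildtype and 48571 and 22667 in heterozygous liver. Same-numbered arrays differed by at most 0.06 on the log2 scale for either gene. Both were among the brightest probe sets of every array, and whether their signals were limited by the upper range of the scan was not tested.

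Fcnb encodes ficolin B, a lectin of the complement pathway that is made by immature myeloid cells. Its signals were 2375 and 1318 in wildtype and 2147 and 1670 in heterozygous liver. Among the 6 genes grouped here as secondary and later, Fcnb was the least uniform between same-numbered pairs. It was lower in heterozygous liver by -0.14 within the arrays numbered 1 and higher by 0.34 within those numbered 2. Its overall difference was 0.10 (95% interval -0.77 to 0.97).

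**Figure D2:**
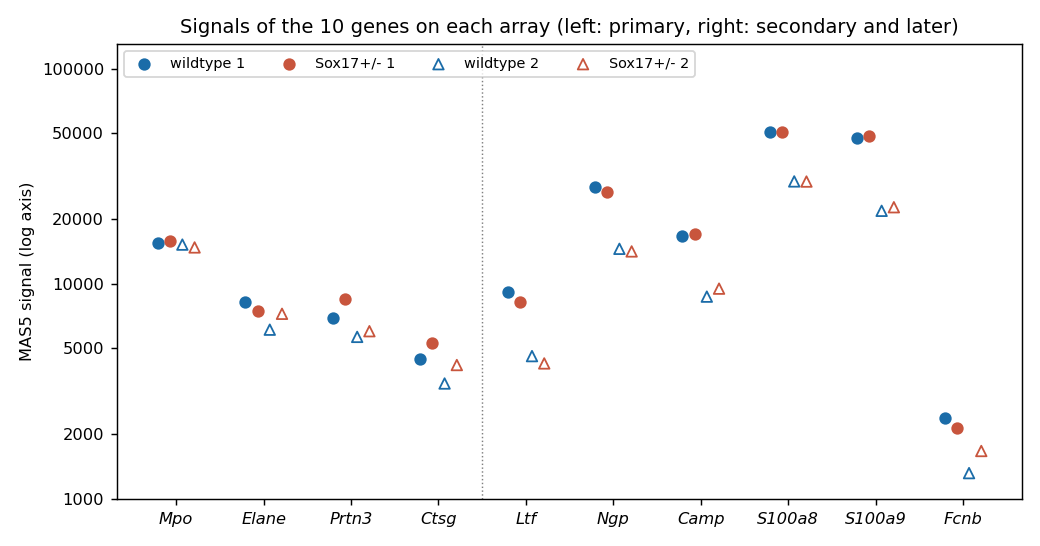
Signal of each gene (log axis) on the 4 arrays, with wildtype in blue and Sox17+/- in red, filled circles for arrays numbered 1 and open triangles for arrays numbered 2. The colours lie close together while circles and triangles separate to the right of the dotted line, as for S100a9 with 47790 and 48571 against 21813 and 22667.

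Primary and secondary genes were then set against each other by their differences rather than their levels, because levels of different probe sets are not comparable. Between genotypes the primary mean exceeded the secondary mean by 0.12 on the log2 scale, with 0.16 within the arrays numbered 1 and 0.08 within those numbered 2. Between array numbers the contrast was larger and ran the same way in both genotypes. Signals of the secondary and later genes were lower on the arrays numbered 2 by a mean of -0.94 in wildtype and -0.82 in heterozygous liver, whereas the primary genes differed by -0.28 and -0.24. The primary minus secondary gap between numbers was thus 0.66 in wildtype and 0.58 in heterozygous liver. In both genotypes it exceeded the gap between genotypes.

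**Figure D3:**
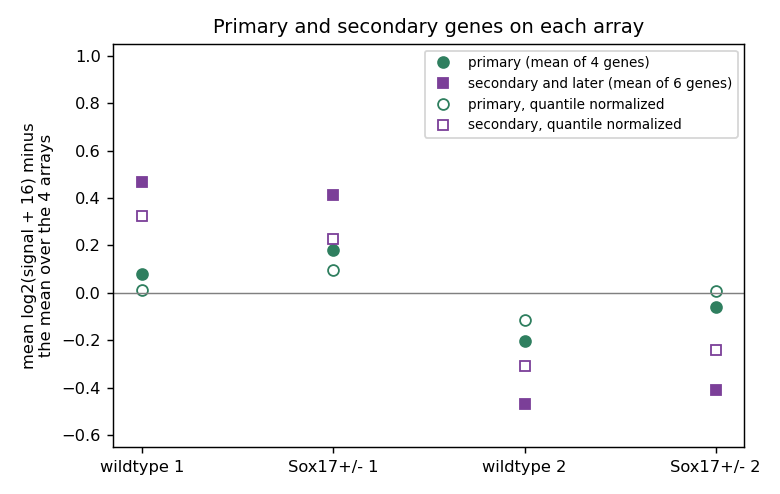
Mean log2(signal + 16) of the 4 primary genes (circles) and the 6 secondary and later genes (squares) on each array, each gene centred on its mean over the 4 arrays, with open symbols for quantile normalized signals. The secondary genes stood at 0.47 and 0.41 on the arrays numbered 1 and at -0.47 and -0.41 on those numbered 2, and the primary genes at 0.08 and 0.18 against -0.20 and -0.06.

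The difference between array numbers was fitted beside genotype with limma after the values had been seen, and is reported with that limit. S100a9 had a fitted log2 difference of -1.11 (SE 0.17), which corresponds to 2.17-fold higher signal on the arrays numbered 1. Ltf followed with -0.97 (SE 0.17) and Ngp with -0.94 (SE 0.17). Camp had -0.89, S100a8 -0.76 and Fcnb -0.60. Of the primary genes, Prtn3 had -0.39, Ctsg -0.36, Elane -0.23 and Mpo -0.06 (SE 0.17). The 6 secondary and later genes thus occupied the 6 lowest places among the members for signals as deposited.

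None of the 10 members passed this test after adjustment over all probe sets (limma adjusted p between 0.259 for S100a9 and 0.894 for Mpo), nor did any of the 22519 probe sets (0%). At an unadjusted p under 0.05, all 6 secondary and later genes and 0 of the 4 primary genes were lower on the arrays numbered 2, against 5.85% of tested genes lower in this way and 15% of probe sets in either direction. That all 10 members had both arrays numbered 2 below both numbered 1 is set against 22% of all tested genes (23% had them above) and 36.2% of the 2503 other genes as bright as Fcnb or brighter. Of those 2503 genes, the share with a difference as low as that of the member was 0.879% for S100a9, 1.36% for Ltf, 1.52% for Ngp, 1.6% for Camp, 3% for S100a8 and 5.83% for Fcnb. For the primary genes it was 14.3% for Prtn3, 16.1% for Ctsg, 28.8% for Elane and 51.7% for Mpo. The set was bounded by the brightness of Fcnb, so it was not matched to S100a8, S100a9 and Ngp, which were far brighter. Among very bright markers of other cells, Alb and Afp had differences of -0.84 and -0.76, and Slc4a1 and Tfrc -0.48 and -0.17. After quantile normalization the share ranged from 1.36% for Ltf to 32.9% for S100a8 among the secondary and later genes, with 5.15% for S100a9, and from 11.2% for Ctsg to 86% for Mpo among the primary genes. The hybridisation control transcripts named above also had lower signals on the arrays numbered 2, and their part in the members' difference was not tested.

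Quantile normalization, which gives every array the same distribution of signals, made the difference between numbers smaller for 8 of the 10 genes. The mean went from -0.88 to -0.55 for the secondary and later genes and from -0.26 to -0.11 for the primary genes, and the gap between them from 0.62 to 0.44. Ltf had -0.86, Camp -0.65, Fcnb -0.63, Ngp -0.56 and S100a9 -0.51. S100a8 went from -0.76 to -0.09, above Ctsg (-0.31), Prtn3 (-0.28) and Elane (-0.11), so the order by class no longer held. Mpo turned from -0.06 to 0.27. The difference of S100a8 thus depended on the normalization, whereas Ltf, Camp and Fcnb remained at least 0.60 lower on the arrays numbered 2 under both settings.

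**Figure D4:**
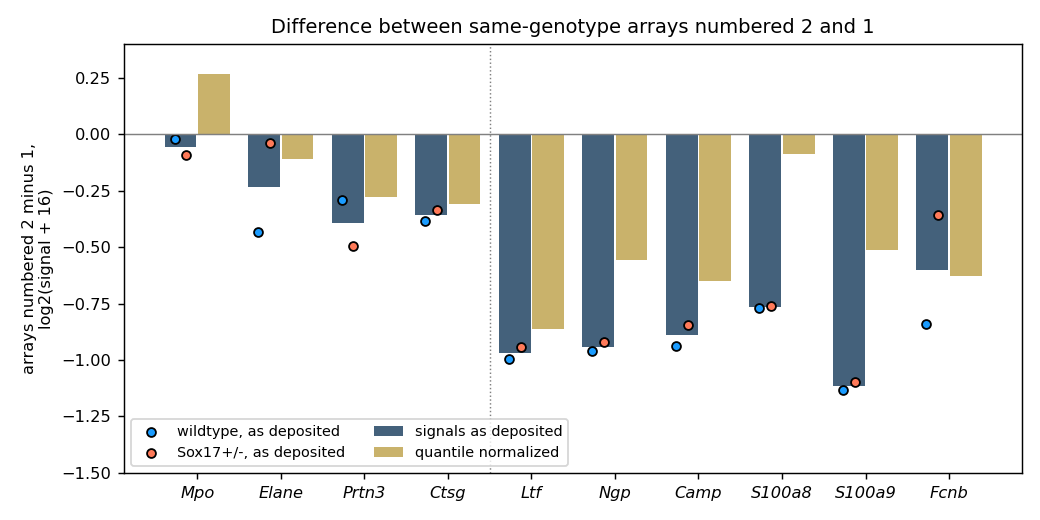
Log2 difference of the arrays numbered 2 minus those numbered 1 for each gene, with bars for the fit to signals as deposited and to quantile normalized signals, and points for each genotype alone as deposited. The bars as deposited reach -1.11 for S100a9 and -0.97 for Ltf but -0.06 for Mpo, and S100a8 loses most of its bar after quantile normalization, at -0.09.

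In bulk tissue, fewer cells of a type and less RNA per cell cannot be told apart, so these values describe the liver as a whole.

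The 250 bases before their RefSeq start (build GRCm38.p6) of the 10 genes were searched for short motifs, on both strands. All 10 genes had a promoter in the table. The C/EBP core TTNNGCAA, named for a factor family that includes regulators of both granule stages, occurred in 4 of the 6 secondary and later genes (Ltf, Ngp, S100a9 and Fcnb) and in 0 of the 4 primary genes, and in 9.56% of 32851 promoters of the same length. The core GAGGAA of PU.1, an ETS factor needed for myeloid development, occurred in 4 of 4 primary genes and in 2 of the 6 others (Ltf and S100a8), and in 23.3% of all promoters. No match of one core overlapped a match of the other in the members. The RUNX core TGTGGT was found in Ctsg and S100a9, and in 4614 of the 32851 promoters, and the TATA core TATAAA in Ctsg and S100a8, and in 12.4% of all promoters. Matches are given as letters in these windows and not as binding sites. The windows of the neighbours Prtn3 and Elane and of the chromosome 9 genes Ltf and Ngp are shown, 5' to 3' on the strand of the gene, as examples of each class chosen after the matches were seen. Capitals mark the C/EBP and PU.1 cores in either orientation.
Prtn3, chr10:79879417-79879666, + strand: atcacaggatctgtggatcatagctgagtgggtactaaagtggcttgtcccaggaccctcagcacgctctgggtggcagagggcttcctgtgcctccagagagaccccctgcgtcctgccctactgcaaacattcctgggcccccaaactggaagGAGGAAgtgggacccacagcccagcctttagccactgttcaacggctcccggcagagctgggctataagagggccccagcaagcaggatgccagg
Elane, chr10:79886062-79886311, + strand: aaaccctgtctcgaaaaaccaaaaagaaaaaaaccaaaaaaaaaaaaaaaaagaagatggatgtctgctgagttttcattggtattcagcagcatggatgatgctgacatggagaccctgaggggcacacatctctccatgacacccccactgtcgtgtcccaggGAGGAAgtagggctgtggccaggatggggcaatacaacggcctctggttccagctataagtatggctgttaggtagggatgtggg
Ltf, chr9:111019042-111019291, + strand: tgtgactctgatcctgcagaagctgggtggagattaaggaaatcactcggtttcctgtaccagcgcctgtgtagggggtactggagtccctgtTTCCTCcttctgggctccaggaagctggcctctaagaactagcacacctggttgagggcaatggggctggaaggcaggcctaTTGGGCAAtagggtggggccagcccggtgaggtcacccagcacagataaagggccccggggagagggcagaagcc
Ngp, chr9:110419558-110419807, + strand: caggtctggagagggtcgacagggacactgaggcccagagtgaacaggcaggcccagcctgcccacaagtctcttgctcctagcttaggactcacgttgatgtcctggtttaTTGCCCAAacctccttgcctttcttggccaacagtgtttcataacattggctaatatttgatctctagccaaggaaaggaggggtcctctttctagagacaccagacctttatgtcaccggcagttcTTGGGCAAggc
In Prtn3 and Elane the PU.1 core begins 95 and 85 bases before the start. In Ltf a C/EBP core begins 75 bases before the start. Ngp holds 2 such cores, beginning 138 and 11 bases before it.

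Other genes of the neutrophil programme, listed by their roles, were compared in the same way. Of 8 tested further genes of primary granules and promyelocytes, 6 had both arrays numbered 2 below both numbered 1, with a median difference between numbers of -0.23 as deposited and -0.32 after quantile normalization. Lyz2, a lysozyme that macrophages also make, had 14666 and 9276 in wildtype and 11841 and 7145 in heterozygous liver, the lowest difference of this list, at -0.69. Ms4a3, a membrane protein of granulocyte precursors, had 2058 and 2096 in wildtype and 2946 and 2128 in heterozygous liver, and its array numbers overlapped. Of 17 further genes of specific and gelatinase granules, 13 had both arrays numbered 2 lower, with a median of -0.59 as deposited and -0.62 after quantile normalization. Of 17 genes of mature neutrophils, 13 did so too, with medians of -0.90 and -0.82. Over all tested genes the median was 0.00072 as deposited and -0.04 after quantile normalization. Both arrays numbered 2 were lower for 22% of all tested genes and for 36.2% of the 2503 other genes as bright as Fcnb or brighter.

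Within these lists the genes named next were chosen after their values were seen. Chil3, a chitinase-like protein, had the lowest fitted difference, -1.98 (SE 0.21), with signals of 3913 and 833 in wildtype and 2474 and 729 in heterozygous liver. Mmp8, the neutrophil collagenase, had 1151 and 526 against 894 and 316. Stfa3, a cysteine protease inhibitor of the stefin family, had 11010 and 4672 in wildtype and 12610 and 5193 in heterozygous liver. Each of these genes was lower on the arrays numbered 2 in both genotypes. Fpr2, a receptor for formylated peptides, had signals of 1180 and 585 in wildtype and 995 and 506 in heterozygous liver. Its difference between numbers was -0.97 as deposited and -1.04 after quantile normalization. These genes lay at the low end of their lists. Array numbers overlapped for Mmp9, Itgam, Slc11a1 and Ltb4r1 of the granule list, with differences of -0.39, 0.05, -0.17 and 0.07. They also overlapped for Clec4d, Il1b, Mxd1 and Padi4 of the mature neutrophil list, with -0.57, -0.23, -0.02 and -0.33.

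Genes that process or inhibit granule proteases had a median difference between numbers of -0.54 over 12 tested genes, 11 of them lower on both arrays numbered 2. Ctsc, the peptidase that activates the granule serine proteases, had 3322 and 2508 in wildtype and 2718 and 2287 in heterozygous liver. Several genes of this list are also expressed by hepatocytes. All 5 tested genes of the NADPH oxidase, which supplies Mpo with hydrogen peroxide, had both arrays numbered 2 lower, with a median of -0.43. The counts of both lists are read against 22% of all tested genes and 36.2% of the other genes as bright as Fcnb or brighter.

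Of 14 tested regulators of granulocyte differentiation, 3 were lower and 2 higher on both arrays numbered 2, against 22% and 23% of tested genes. Their median was -0.06. Myb, a transcription factor of progenitors named after its values were seen, had 2288 and 2587 in wildtype and 1987 and 2436 in heterozygous liver, higher on the arrays numbered 2. Cebpa, which starts granulocyte commitment and is also a hepatocyte factor, had 4127 and 2295 in wildtype and 2361 and 1841 in heterozygous liver. Cebpb had 1288 and 1106 in wildtype and 2770 and 1482 in heterozygous liver, and both heterozygous arrays lay above both wildtype arrays, as they did for 14.5% of tested genes. Gfi1, a repressor needed for neutrophil maturation, had 190 and 132 against 208 and 262. Cebpe, the factor of the secondary granule stage, was not analysed here. Of the 14 regulators, 0 passed the limma test between genotypes over all probe sets, and 0 had an unadjusted p under 0.05.

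Among receptors and ligands of granulopoiesis, 0 of 12 passed between genotypes and 1 had an unadjusted p under 0.05. That gene was Cxcl12, the chemokine that retains myeloid cells in blood-forming tissue, with signals of 2024 and 1872 in wildtype and 1074 and 1186 in heterozygous liver. Its log2 difference was -0.78 (SE 0.20, adjusted p = 0.9999 by limma). Csf3r, the receptor for the granulocyte growth factor G-CSF, was also named after its values were seen, with 351 and 337 in wildtype and 348 and 312 in heterozygous liver. Its difference between numbers was -0.10.

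**Figure D5:**
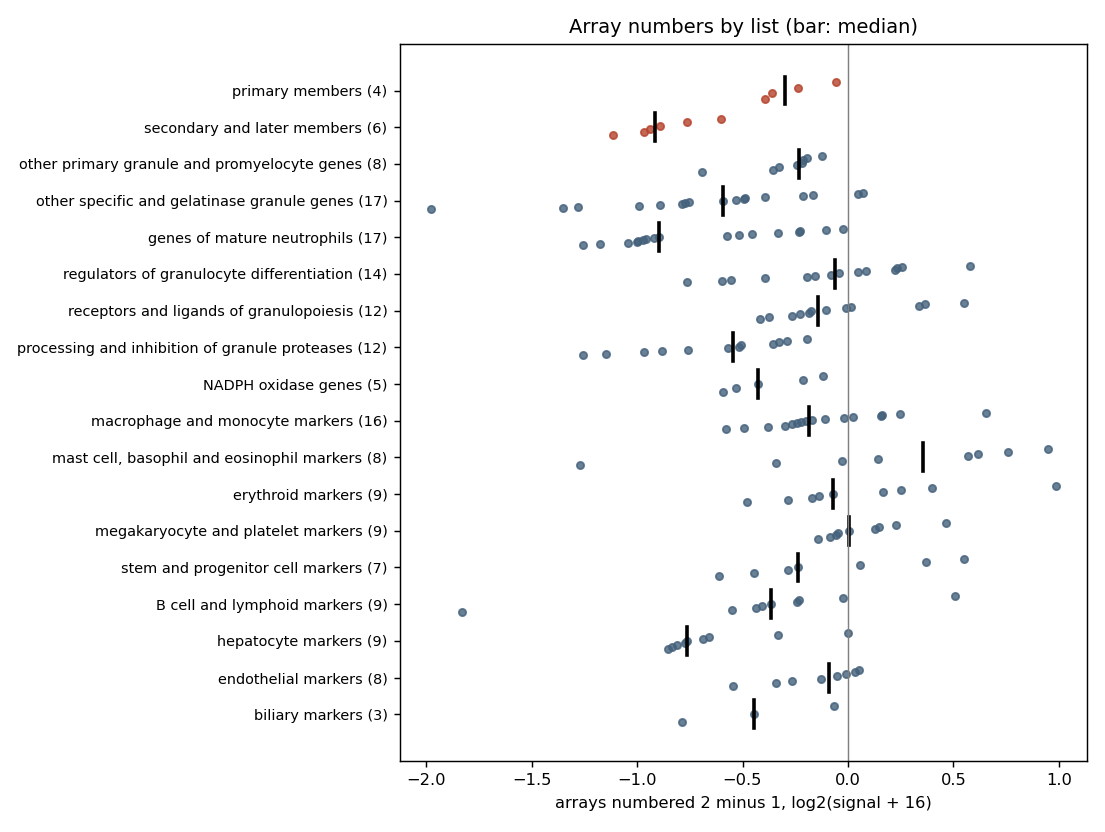
Fitted log2 difference of the arrays numbered 2 minus those numbered 1 for each tested gene of each list (points), with the median of the list as a black bar and the number of genes in parentheses. The secondary and later members and the mature neutrophil genes have medians of -0.92 and -0.90, the primary members -0.30, and the regulators -0.06.

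Markers of other cell types were counted in the same way, and the counts are read against the 22% of all tested genes with both arrays numbered 2 below and the 23% with both above. Of 16 macrophage and monocyte markers, 5 had both arrays numbered 2 below both numbered 1 and 0 had them above, with a median of -0.18, and their summed signal was 37587 and 31748 in wildtype and 36299 and 32672 in heterozygous liver. Within both genotypes, 8 of the 16 were lower on array 2 and 2 were higher. By this looser count 3686 of the 11691 tested genes were lower and 3664 were higher. The 3 with an unadjusted p under 0.05 between genotypes (4.15% of tested genes) were Vsig4 and Marco, receptors of tissue macrophages, and the monocyte receptor gene Ccr2. Vsig4 had 811 and 364 in wildtype and 130 and 194 in heterozygous liver, a log2 difference of -1.68. Marco had 2257 and 1738 in wildtype and 5024 and 3274 in heterozygous liver, a difference of 1.03. Ccr2 had 332 and 394 in wildtype and 202 and 245 in heterozygous liver, a difference of -0.66. None of these 3 genes passed the limma test after adjustment (adjusted p = 0.9999). Their genotypes did not overlap, but they were picked by their unadjusted p. Of the 16 markers, 2 had both heterozygous arrays above both wildtype arrays and 6 had them below. The shares of all tested genes were 14.5% and 18.6%. Of 8 mast cell, basophil and eosinophil markers, 1 was lower and 2 were higher on both arrays numbered 2. Of 9 megakaryocyte markers, 0 were lower and 1 was higher, and of 9 erythroid markers 3 were lower and 3 higher. Both were lower for 2 of 7 stem and progenitor cell markers, 4 of 9 B cell and lymphoid markers, 1 of 8 endothelial markers and 1 of 3 biliary markers, and both were higher for 1, 1, 0 and 0 of them. Between genotypes, 0 genes of any of the 16 lists passed, and an unadjusted p under 0.05, found for 4.15% of all tested genes, was found for 3 of 16 macrophage and monocyte markers, 2 of 8 mast cell, basophil and eosinophil markers, 1 of 7 stem and progenitor cell markers and 1 of the 12 receptors and ligands, Cxcl12. Of 9 hepatocyte markers, 8 were lower on both arrays numbered 2, with a median of -0.76 as deposited but -0.08 after quantile normalization. Their part in the members' difference was not tested. After quantile normalization the mean was -0.20 for the hepatocyte markers, -0.55 for the 6 secondary and later genes, -0.69 for Ltf, Ngp and Camp and -0.30 for S100a8 and S100a9.

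The genes whose profile over the 4 arrays lay nearest to the mean of the secondary and later genes, by root mean squared distance among 4720 tested genes, were Fgb, Anxa1, Ahsg, Hal and Stbd1, at distances of 0.044 to 0.048 on the log2 scale. Anxa1, a protein of neutrophil granules and cytosol, had 7978 and 4313 in wildtype and 7793 and 4134 in heterozygous liver. Fgb and Ahsg encode plasma proteins made by hepatocytes, with 34038 and 17767 against 30414 and 17823 for Fgb. Nearest to the mean of the primary genes, among 10826 tested genes, were D10Wsu102e, Btf3, Ap3s1, Cep19 and Iqcb1, at distances of 0.0029 to 0.012. With 4 arrays such closeness is a description of these arrays only.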

How the data were processed

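The deposited table holds probe set intensity values on a linear scale; the authors used MAS5, as the submitters' processing notes list it. Every array has a mean of 500.0 once 2% is trimmed from each end. Its version and detection calls were not given in the sources used here. MAS5 makes each signal from its own array, and no scale is shared between probe sets. Of 45101 probe sets, 64 controls were left out, and of the remaining 45037, 34945 had 1 gene symbol, 932 several and 9160 none listed. Signals were taken as log2(signal + 16), so folds of dim genes are understated. The brighter 50% by mean log2 value over all arrays were tested (22519) by lmFit and eBayes of limma 3.58.1 (R 4.3.3), two-sided with genotype as the only term. Calls needed a Benjamini-Hochberg adjusted p under 0.05. There were 2 residual and 3.24 prior degrees of freedom. The smallest two-sided p that an exact permutation of these arrays allows is 0.333. A brightest tested probe set stood for each gene. The members and the 16 gene lists were chosen with earlier results of these data known. The genes named from a list were those past the threshold and otherwise up to 4 with the smallest p (8 for regulators), and any other is said to have been chosen after its values were seen; the 5 genes nearest in profile to each class were also named. The additive fit of array number beside genotype was added after the values were seen. Settings tried besides were pseudocounts of 1 and 64, no filter, the brighter 25%, median centring, quantile normalization, each array left out, a replicate block, and a trended, robust prior. The code was tested on simulated data. RefSeq promoters are of build GRCm38.p6.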

Additional observations from a re-analysis of the deposited data

How the results depend on the processing

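No member passed between genotypes under any of the 12 alternatives run for single genes, whose adjusted p was at least 0.741. Over all probe sets, 5 passed with median centring and 3 with a trended and robust prior, against 0 in the other settings. With each array left out in turn the difference ranged from -0.053 to 0.041 for Mpo, -0.17 to 0.26 for Elane, -0.059 to 0.44 for Prtn3, 0.07 to 0.45 for Ctsg, -0.63 to 0.36 for Ltf, -0.54 to 0.42 for Ngp, -0.39 to 0.54 for Camp, -0.39 to 0.38 for S100a8, -0.53 to 0.60 for S100a9 and -0.32 to 0.52 for Fcnb. The primary mean ranged from -0.02 to 0.26, the secondary mean from -0.47 to 0.47 and primary minus secondary from -0.21 to 0.45, since leaving out 1 array leaves the numbers unequal between genotypes. Median centring turned the sign of Mpo (0.041) and S100a8 (0.040). With Ltf, Ngp and Camp alone as secondary genes, primary minus secondary was 0.16. Each member had 1 probe set, so a mean over probe sets gives the same values.

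Deviations from the genotype mean correlated between arrays of the same number (r = 0.391 over all tested probe sets), and only 2 pairs exist. With the replicate block, 0 probe sets and 0 members passed, and 1693 probe sets had an unadjusted p under 0.05 against 923 without it. For the difference between array numbers, added after seeing the data, median centring called 755 probe sets and 3 members (Ltf, Ngp and S100a9), against 0 and 0 as deposited; the prior degrees of freedom were infinite in that fit. It gave a primary mean of -0.34, and quantile normalization gave -0.11 for primary, -0.55 for secondary and 0.44 for primary minus secondary, with Mpo reversed to 0.27. For the other settings the cause was not tested. Array number limits the precision of all of these values, and scanner saturation cannot be read from the table.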
